A study of Drosophila melanogaster and Drosophila simulans and Drosophila yakuba with 24 samples.

Results

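The repeats that fat body of piwi heterozygous flies transcribed were set beside the repeats against which it carried antisense small RNA. The members were chosen by label and by table: 4 of the 24 libraries of the series, namely the oxidized small RNA library (n = 1) and the total RNA-seq libraries (n = 3) of piwi2/CyO fat body, and all 233 repeat entries that both tables list by name, class and family. A further line in each table, called residual, is not a repeat entry and was left out. It held 93.7 to 95.3% of the RNA-seq counts but 0.651% of the small RNA counts, so it need not pool the same kind of reads in both. The flies were Drosophila melanogaster females aged 10 days. All of them carried 1 copy of the piwi2 mutant allele over the CyO balancer chromosome, so the baseline described here is that of a heterozygote and not of a wild type. Fat was scraped from the inner body wall of pooled flies after ovaries and gut had been taken out. The study asked whether the piRNA pathway, known from the gonad, also acts in this non-gonadal tissue, and these flies served as its controls. The tables hold repeats and no genes, so the label of the tissue could not be checked against marker genes.

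piRNAs are small RNAs that guide Piwi-clade Argonaute proteins to transposable elements (TEs), and a piRNA antisense to a TE can pair with the transcript of that TE. In the gonad most of them are cut from long precursors of piRNA clusters, loci made of TE remnants. One such cluster, flamenco, is known for restraining gypsy, ZAM and Idefix in the somatic cells of the ovary. The fly fat body stores lipid and glycogen and is the counterpart of liver and adipose tissue. Periodate oxidation removes small RNAs with a free 3′ end from the library and spares those with a 2′-O-methyl group, which piRNAs carry. The siRNAs bound to Ago2 carry the same group, and the range of read lengths counted is not given in the sources used here, so the values are called antisense small RNA and not piRNA.

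The small RNA library held 269440 antisense counts on the 233 entries. The RNA-seq libraries held 510072, 401540 and 941049 counts on the same entries, which were 4.74, 6.30 and 5.78% of all their counts. Each value below is a share of the counts on repeats in its own library. Antisense shares come with an exact 95% binomial interval (Clopper-Pearson) in parentheses, which covers counting error only since there was 1 library and the reads carry no molecular identifiers. Transcript shares are given for RNA-seq replicates 1, 2 and 3 in that order, or as mean ± SD (n = 3). The study's methods call its RNA-seq libraries biologically independent. No test is given between antisense and transcript shares, because the single small RNA library gives no replicate error on the antisense side. Element lengths are not in the tables, so a share is one of reads and not a level per length, whereas the ratio of antisense to transcript share within an entry does not depend on its length. Whether the RNA-seq counting used strand is not given in the sources used here. Sense transcripts and antisense precursors of an entry therefore cannot be told apart in the transcript counts. The counts pool all copies of a repeat, so reads from copies that lie within other transcripts cannot be told apart either.

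LTR retrotransposons, which copy themselves through an RNA intermediate and carry long terminal repeats (LTRs), made up most of both kinds of RNA. They took 62.97% of the antisense counts (62.8 to 63.2%) and 80.6, 74.1 and 82.3% of the transcript counts. LINEs, the retrotransposons without LTRs, took 32.0% (31.9 to 32.2%) of antisense and 11.2, 15.4 and 10.4% of transcripts, a share 2.60-fold higher in antisense than the transcript mean. DNA transposons, which move by cutting and pasting, held 4.16% (4.08 to 4.23%) of antisense and 2.93, 3.46 and 2.45% of transcripts. The antisense share of LINEs lay above, and that of LTR elements below, all 3 RNA-seq libraries. Rolling-circle elements, the Helitrons, took 0.298% (0.278 to 0.320%) of antisense against 2.46, 2.98 and 2.13% of transcripts. Everything outside these 4 TE classes, 23 entries of satellites, ribosomal RNA and unclassified repeats, came to 0.548% of antisense (0.520 to 0.576%) and 3.21 ± 0.751% of transcripts.

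These class shares turn on a single entry, the internal sequence of gypsy (Gypsy_I), which alone held 39.3, 31.3 and 48.4% of the transcript counts and 1.03% of the antisense counts, ranked 30 there. With that entry taken out of both tables, LTR elements held 62.6% of antisense and 65.3 ± 2.87% of transcripts, with replicate 2 at 62.3% just under the antisense share, and LINEs 32.4% and 20.3 ± 1.99%. DNA transposons then changed sides, with 4.20% of antisense and 4.87 ± 0.148% of transcripts, whereas Helitrons stayed lower in antisense at 0.302 against 4.17 ± 0.153%.

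**Figure D1:**
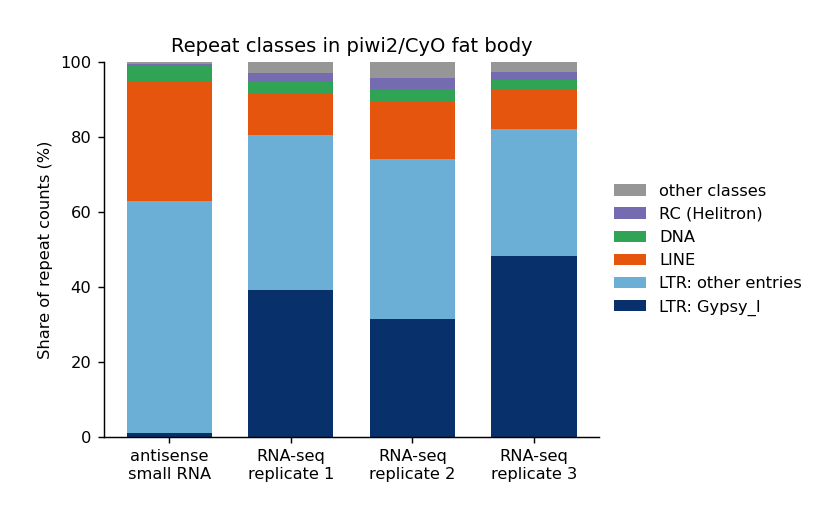
Share of repeat counts (%, vertical axis) by class in the antisense small RNA library and in each of the 3 RNA-seq libraries of piwi2/CyO fat body (horizontal axis), with the internal sequence of gypsy drawn apart from the other LTR entries. Gypsy_I takes 1.03% of the antisense bar and 31.3 to 48.4% of the transcript bars, and the LINE segment is 32.0% of antisense against 10.4 to 15.4% of transcripts.

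At the level of families, Gypsy elements held 46.2% of antisense and 62.5 ± 6.04% of transcripts, over 107 entries. The summed log2 ratio of antisense to transcripts for that family was -0.43, and it was 0.27 without Gypsy_I. The other LTR families pulled apart. Pao elements held 15.3% of antisense and 7.04 ± 0.913% of transcripts, a summed log2 ratio of 1.13 that was 0.41 without Gypsy_I. Copia elements held 1.47% of antisense and 9.48 ± 1.97% of transcripts, which is 6.46-fold lower in antisense. Their summed log2 ratio was -2.67, and -3.39 without Gypsy_I. Among LINEs the Jockey family held 17.0% of antisense and 7.55 ± 1.16% of transcripts, a summed log2 ratio of 1.18 that was 0.46 without Gypsy_I. The R1 family, whose best known member inserts into ribosomal RNA genes, held 10.2% of antisense and 2.68 ± 0.931% of transcripts, or 3.81-fold more in antisense. R2, which inserts into the same genes, was at the other extreme with 0.00408% of antisense and 0.341 ± 0.121% of transcripts. Both kinds of library had ribosomal RNA removed, by a depletion step for RNA-seq and by alignment for small RNA. What that removal took from elements joined to ribosomal sequence was not tested.

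The antisense library was spread over many elements. It took 19 entries to reach 50% of the antisense counts and 73 to reach 90%. MAX_I, the internal sequence of a Pao family element, led with 6.67% (6.57 to 6.76%). BLOOD_I, of the mdg1 group of gypsy-like elements, followed with 4.75% (4.67 to 4.83%), and DMRT1B, a LINE of the R1 family, had 4.603% (4.52 to 4.68%). The intervals of BLOOD_I and DMRT1B overlapped, while MAX_I stood clear of both. Next came FW_DM, the F element, a LINE of the Jockey family, with 4.13% (4.05 to 4.20%) and DM412, of the mdg1 group, with 4.03% (3.95 to 4.10%), again with overlapping intervals. R1_DM had 3.66% (3.59 to 3.74%), DOC, a Jockey family LINE, 2.99% (2.92 to 3.05%), and ROO_I, of the Pao family, 2.58% (2.52 to 2.64%).

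The remaining places among the leading 15 went to BATUMI_I with 2.12%, DMRT1A with 1.87%, Stalker2_I and DMCR1A with 1.63% each, and Gypsy1-I_DM, Gypsy6_I and MDG3_I with 1.57, 1.55 and 1.55%. From Stalker2_I downwards each interval overlapped that of the next entry. The leaders thus mixed the LINEs DMRT1B, FW_DM, R1_DM, DOC, DMRT1A and DMCR1A with LTR entries of the Gypsy and Pao families. They contained no Copia element, DNA transposon or Helitron. Together the 15 held 45.3% of antisense (45.1 to 45.5%) and 15.7 ± 2.47% of transcripts.

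Transcripts were more concentrated. On the mean of the 3 libraries 4 entries reached 50% of the transcript counts, and by library this took 4, 7 and 2 entries. Gypsy_I, at 39.7 ± 8.52%, was above every other entry in each library, and its coefficient of variation between them was 21.5%. Without it the number of entries for 50% was 14. Copia-like elements came next, Copia_I with 5.26, 4.54 and 3.38% and DM1731_I with 4.89, 3.73 and 3.20%, whose libraries overlapped. ROO_I followed with 3.77, 3.92 and 3.24% and DOC with 3.19, 3.13 and 2.73%. The lowest ROO_I library lay just above the highest DOC library, and apart from Gypsy_I over Copia_I this was the only pair of neighbours among the leading 15 that did not overlap. Compared within each library, Copia_I was also above DM1731_I in all 3.

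DNAREP1_DM, the short Helitron-like element also known as INE-1, which is scattered through the genome in very many copies, took 2.46, 2.98 and 2.13% of transcripts. The gypsy-like DM297_I had 2.24, 2.34 and 1.74% and BURDOCK_I 2.30, 1.99 and 1.59%. Within each library DOC was above DNAREP1_DM and DNAREP1_DM above DM297_I, although their ranges overlapped. The ribosomal LINE R1_DM took 1.51, 2.73 and 1.55%, with replicate 2 well above the others. The leading 15 were completed by Gypsy_LTR, FW_DM, MDG1_I, BLOOD_I, MAX_I and ACCORD_I, with means between 0.967 and 1.35%. Together these leaders held 30.3% of antisense and 69.9 ± 5.63% of transcripts. Of the 15 leading transcript entries 6 were also among the 15 leading antisense entries, namely BLOOD_I, DOC, FW_DM, MAX_I, R1_DM and ROO_I. The leaders ACCORD_I, BURDOCK_I, Copia_I, DM1731_I, DNAREP1_DM and Gypsy_LTR had between 0.167% and 0.564% of antisense.

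**Figure D2:**
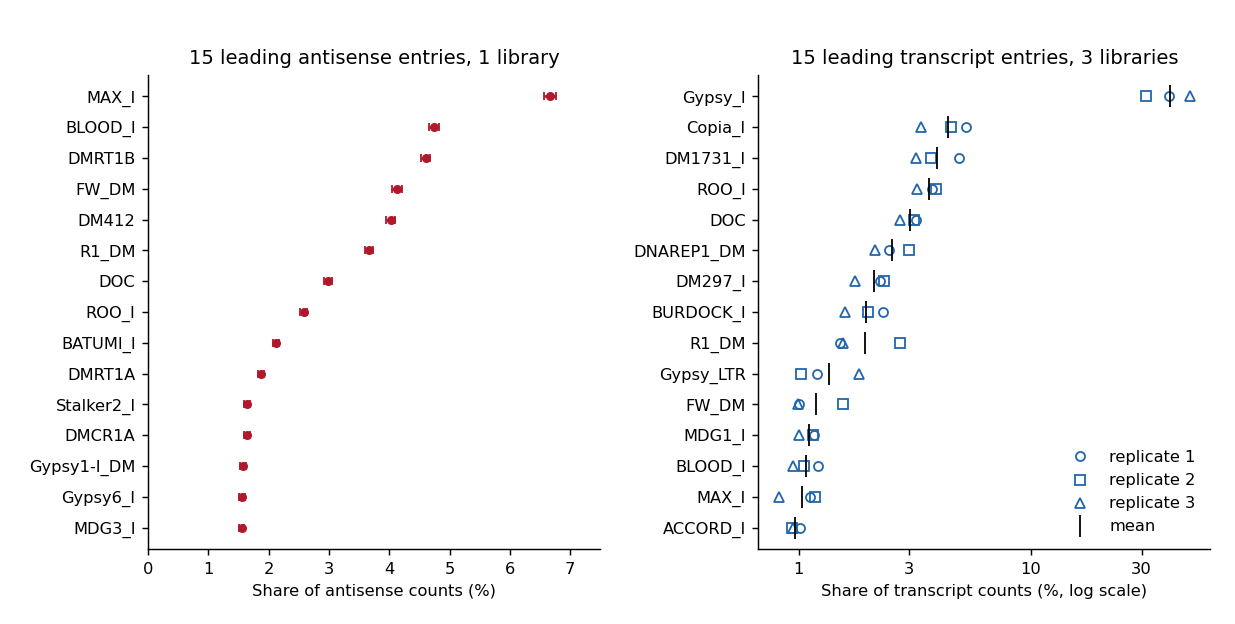
The 15 entries with the largest antisense share (left; %, 1 library, bars are 95% binomial intervals) and the 15 with the largest transcript share (right; %, log scale, 1 symbol per RNA-seq library and a bar at the mean). Antisense shares step down gradually, 6.67% for MAX_I and 1.55% for MDG3_I, while Gypsy_I at 31.3 to 48.4% of transcripts stands far right of Copia_I at 3.38 to 5.26%.

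To relate both kinds of RNA entry by entry, the log2 ratio of antisense share to transcript share was taken against each RNA-seq library, with 0.5 added to each count. It was read for the 183 entries with at least 10 antisense counts and a mean of at least 10 transcript counts. Of the other 50 entries, 31 fell short in antisense counts alone and 19 in both, and they are described separately. Entries with more transcripts generally had more antisense small RNA. Across the 183 entries Spearman's rank correlation was 0.674 and Pearson's r on the log2 scale 0.626, and with each RNA-seq library by itself the rank correlation was 0.651, 0.695 and 0.675. These are descriptions across entries of shared libraries, and neither share was corrected for the length or copy number of an entry. By class the rank correlation was 0.733 for LTR elements (n = 122), 0.732 for LINEs (n = 36) and 0.451 for DNA transposons (n = 20). Among LTR elements it was weaker within each part, at 0.566 for internal sequences (n = 59) and 0.297 for LTRs (n = 57).

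The ratio nevertheless spanned a wide range, with a lowest log2 value of -6.26 for R2_DM, a median of 0.92, quartiles of -0.42 and 2.12, and a highest value of 4.48 for Invader4_LTR. The antisense share was above the transcript share of all 3 libraries in 111 entries, below it in 52 and mixed in 20. An entry was called antisense-rich or antisense-poor when its shares differed by at least 4-fold in the same direction against all 3 libraries. The call uses the antisense share and not its interval, so it makes no allowance for counting error where antisense counts are few. Of the 183 entries 34 were antisense-rich (18.6%) and 15 antisense-poor (8.2%). Without RNA-seq replicate 2 the antisense-rich count was 54 and the antisense-poor count 16. A call asks for 4-fold against every library used, so leaving a library out keeps all calls and can only add to them. The antisense-rich entries held 31.1% of antisense (30.9 to 31.3%) and 3.62 ± 0.918% of transcripts, and the antisense-poor ones 2.60% (2.54 to 2.67%) and 55.9 ± 7.17%. Both sets were picked by the ratio of these same shares, so the contrast between them follows from the choice. Of the transcript share of the antisense-poor set, Gypsy_I alone made up 39.7 ± 8.52% of all transcript counts.

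Shares add up to 100% within a library, so the large share of Gypsy_I among transcripts raised the ratio of every other entry. Taking Gypsy_I out moved the log2 ratio of each other entry by -0.72 on average over the libraries, and the split became 26 antisense-rich and 23 antisense-poor. Centring the ratio on the median entry of each library, a choice added once results were known, took 0.97 off it on average and gave 20 antisense-rich and 26 antisense-poor entries. Both steps lower every ratio, so antisense-rich calls can only be lost and antisense-poor calls only gained. By construction, then, these 26 and these 20 antisense-rich entries were all among the 34. For the same reason the 15 antisense-poor entries were all called after centring, and 14 without Gypsy_I, which was itself the other. The overlaps are thus no check on the calls. Antisense-rich entries were 69.4% of all calls as shares, 53.1% without Gypsy_I and 43.5% after centring. Either step takes a single value per library off every entry, so the order of entries by ratio is kept while the sign of a ratio near 0 is not fixed. At the edges of the calls, taking each entry's library closest to 0, DOC2_DM at 2.05 and Gypsy1-LTR_DM at 2.11 were just inside and BLOOD_I at 1.96 and GTWIN_I at 1.94 just outside. On the low side Mariner2_DM at -2.31 and ACCORD_I at -2.35 were inside and QUASIMODO2-LTR_DM at -1.97 and FW2_DM at -1.82 outside.

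**Figure D3:**
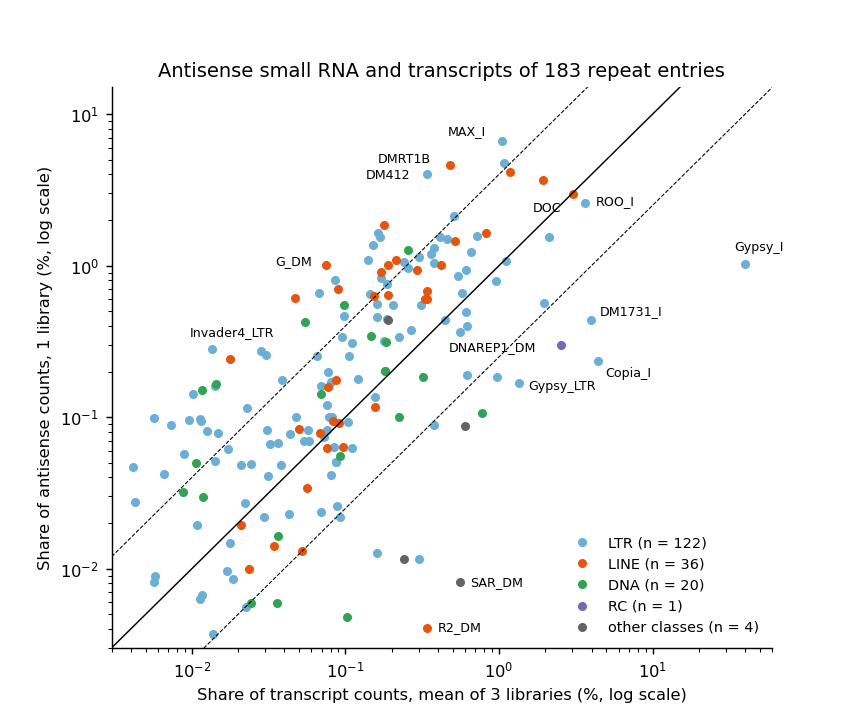
Share of antisense counts (%, vertical log axis, 1 library) against mean share of transcript counts (%, horizontal log axis, 3 libraries) for the 183 entries with enough counts in both, by class. The solid line marks equal shares and the dashed lines a 4-fold difference. The cloud runs upwards (rank correlation 0.674), with Gypsy_I, Copia_I, DM1731_I, DNAREP1_DM, SAR_DM and R2_DM far below the lower dashed line and MAX_I, DMRT1B and DM412 above the upper one.

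The elements restrained by flamenco in the ovary differed widely among themselves. Their 6 entries held 2.11% of antisense and 41.8 ± 8.84% of transcripts, nearly all of it gypsy. Of the 5 entries with enough counts 2 were antisense-poor, beside 8.2% of all 183, and the median log2 ratio was -0.28, beside 0.92 over all. Gypsy_I had 1.03% (0.992 to 1.07%) of antisense against 39.3, 31.3 and 48.4% of transcripts, a log2 ratio of -5.24 ± 0.31 that is 37.9-fold lower in antisense. It nevertheless ranked 30 among antisense entries with 2774 counts. Gypsy_LTR had 0.167% (0.152 to 0.184%) against 1.21, 1.03 and 1.82%, a log2 ratio of -2.97 ± 0.42. IDEFIX_I, with 0.498% of antisense and 0.585, 0.665 and 0.570% of transcripts, was slightly lower in antisense in every library (-0.28 ± 0.12). IDEFIX_LTR was higher in antisense in every library, with 0.161% of antisense and 0.0541, 0.0936 and 0.0606% of transcripts (1.25 ± 0.42). ZAM_I was on the same side with 0.251% (0.233 to 0.271%) of antisense against 0.0422, 0.1001 and 0.0525% of transcripts, a ratio of 2.05 ± 0.65 that passed 4-fold in replicates 1 and 3 and not in replicate 2. A separate entry named Gypsy_DS held 0.959, 0.990 and 0.934% of the Gypsy_I counts in the RNA-seq libraries, and similar entries such as these can share reads under the counting used.

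The other envelope-carrying elements of the gypsy group, many of which encode a retrovirus-like envelope protein as gypsy does, held 15.3% of antisense and 7.61 ± 1.33% of transcripts. Of their 31 entries with enough counts 8 were antisense-rich and 1 antisense-poor, beside 18.6% and 8.2% of all entries, with a median log2 ratio of 0.94 beside 0.92 over all 183. Gypsy6_I had 1.55% (1.51 to 1.60%) of antisense against 0.105, 0.262 and 0.134% of transcripts (3.33 ± 0.68), and Gypsy3_I 0.805% (0.771 to 0.839%) against 0.0665, 0.114 and 0.0769% (3.27 ± 0.40). DM297_I was instead lower in antisense, with 1.55% (1.502 to 1.60%) against 2.24, 2.34 and 1.74%. ACCORD_I was the antisense-poor member with 0.183% (0.168 to 0.2002%) against 1.02, 0.937 and 0.949%, a ratio of -2.40 ± 0.06 and so 5.27-fold lower in antisense.

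Elements of the mdg1 group, gypsy-like retrotransposons that as a rule lack an envelope gene, stood furthest to the antisense side of all the lists. Their 11 entries held 14.4% of antisense and 3.34 ± 0.452% of transcripts, a 4.30-fold difference. The median log2 ratio was 3.10, and 6 of 11 entries were antisense-rich beside 18.6% of all entries. DM412 had 4.03% (3.95 to 4.10%) of antisense against 0.247, 0.497 and 0.275% of transcripts, or 12.5-fold higher (3.64 ± 0.54). Stalker2_I had 1.63% (1.59 to 1.68%) against 0.130, 0.226 and 0.132% (3.38 ± 0.45). BLOOD_I, with 4.75% (4.67 to 4.83%) against 1.22, 1.06 and 0.951%, was 4.44-fold higher on average and just missed the call in replicate 1. The namesake MDG1_I was an exception, with 1.08% (1.04 to 1.12%) against 1.16, 1.16 and 1.01% and a ratio of -0.04 ± 0.12.

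The Copia family list, copia and DM1731, lay on the opposite side. These retrotransposons encode no envelope, and copia transcripts are known to be abundant in flies. All 4 entries were antisense-poor, beside 8.2% of all entries, and together they held 0.697% (0.666 to 0.730%) of antisense against 10.7, 8.76 and 6.94% of transcripts, which is 12.6-fold lower. Copia_I had 0.236% (0.218 to 0.255%) of antisense against 5.26, 4.54 and 3.38% of transcripts (-4.19 ± 0.33), and DM1731_I 0.437% (0.412 to 0.462%) against 4.89, 3.73 and 3.20% (-3.15 ± 0.31). Their LTRs had 31 and 34 antisense counts and ratios of -4.67 ± 0.23 and -3.60 ± 0.45. The whole Copia family has 10 entries, of which 8 had enough counts. Its 4 antisense-poor entries were those of the list, so the entries of Copia1 and Copia2, outside the list, were not antisense-poor. Of these Copia1-LTR_DM was antisense-rich at 2.74 ± 0.55 with 74 antisense counts, and Copia2_I had a ratio of -0.58 ± 0.33.

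Pao family elements carry LTRs but form a lineage apart from gypsy and copia. Their 12 listed entries held 14.1% of antisense and 6.56 ± 0.818% of transcripts. The summed log2 ratio was 1.11, and it was 0.39 without Gypsy_I and 0.14 after centring. The median log2 ratio was 1.08, beside 0.92 over all 183 entries, and 2 entries were antisense-rich, a share close to the 18.6% of all entries. MAX_I had 1.12, 1.18 and 0.822% of transcripts beside its 6.67% of antisense, so that it was 6.49-fold higher in antisense (2.70 ± 0.28). BATUMI_I, with 2.12% against 0.551, 0.563 and 0.403%, was 4.24-fold higher on average but under 4-fold in replicates 1 and 2. ROO_I, with the largest transcript share of the family, had 2.58% against 3.77, 3.92 and 3.24% and was lower in antisense in each library (-0.49 ± 0.14).

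Among LINEs, the telomeric elements HeT-A, TAHRE and TART, which maintain fly chromosome ends by transposing to them, held 2.35% of antisense and 0.869 ± 0.167% of transcripts over 4 entries. The median log2 ratio was 1.38. All 4 were higher in antisense in each library, and 0 were called antisense-rich. After centring on the median entry TART turned to the transcript side. HETA had 0.936% against 0.291, 0.364 and 0.220% (1.71 ± 0.36), TAHRE 0.631% (0.601 to 0.661%) against 0.133, 0.210 and 0.116% (2.09 ± 0.45) and TART 0.603% (0.574 to 0.633%) against 0.384, 0.356 and 0.274% (0.85 ± 0.26). The non-telomeric LINEs of the list held 16.5% of antisense and 7.37 ± 1.11% of transcripts. Their summed log2 ratio was 1.17, and it was 0.45 without Gypsy_I and 0.20 after centring. The median log2 ratio was 0.87, and 4 entries of 23 were antisense-rich, a share close to the 18.6% of all entries. These 4 were the Jockey family members G_DM, G6_DM, G2_DM and DOC2_DM. G_DM had 1.00% (0.967 to 1.04%) of antisense against 0.0382, 0.123 and 0.0628% of transcripts and was 15.1-fold higher in antisense (3.91 ± 0.85). DOC, the LINE with the largest transcript share, had an antisense share inside the range of its libraries, at 2.99% (2.92 to 3.05%) against 3.19, 3.13 and 2.73% (-0.01 ± 0.12). The F element FW_DM had 4.13% (4.05 to 4.20%) against 1.00, 1.56 and 0.989% (1.84 ± 0.37), and I_DM, the I element of hybrid dysgenesis, 1.45% against 0.502, 0.580 and 0.467%, or 2.82-fold higher.

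R1 and R2, the LINEs that insert into ribosomal RNA genes, differed sharply from each other. R1_DM had 3.66% (3.59 to 3.74%) of antisense against 1.51, 2.73 and 1.55% of transcripts, a ratio of 0.98 ± 0.48. By library its log2 ratio was 1.28, 0.42 and 1.24, beside medians over all 183 entries of 1.14, 0.63 and 1.14. It was thus close to the median entry, and below it in replicate 2. R2_DM had 11 antisense counts, 0.00408% (0.00204 to 0.00730%), against 0.340, 0.462 and 0.221% of transcripts, and so was 76.5-fold lower in antisense (-6.26 ± 0.53), the lowest ratio of all 183 entries. Over the list of 3 rDNA-inserted LINEs 1 was antisense-poor and the median log2 ratio was -0.08, while the summed log2 ratio was 0.74, and it was 0.01 without Gypsy_I and -0.23 after centring. The related DMRT1B and DMRT1A, of the same R1 family, were antisense-rich. DMRT1B had 0.401, 0.638 and 0.407% of transcripts beside its 4.603% of antisense (9.78-fold higher), and DMRT1A 0.134, 0.255 and 0.148% beside 1.87% (10.9-fold higher).

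DNA transposons of the list held 3.53% of antisense and 1.56 ± 0.352% of transcripts, with a median log2 ratio of 1.14 over 12 entries and both directions among them. BARI_DM, a Tc1-like element, had 0.424% (0.4000 to 0.449%) against 0.0408, 0.0755 and 0.0468% (3.02 ± 0.47), and TRANSIB2 0.553% (0.526 to 0.582%) against 0.0888, 0.125 and 0.0807% (2.52 ± 0.33). These were the antisense-rich entries of the list, a share close to the 18.6% of all entries, and Mariner2_DM, with 16 antisense counts and a ratio of -2.54 ± 0.26, the antisense-poor one. Its library closest to 0 was at -2.31, near the limit, and whether the call holds within the counting error of 16 counts was not tested. HOBO, of the hAT superfamily, had 0.314% (0.293 to 0.336%) against 0.171, 0.231 and 0.151% (0.79 ± 0.32), on the transcript side after centring. Within the related P-like repeats, PROTOP had a ratio of 2.34 ± 0.39, PROTOP_A of 0.18 ± 0.34 and PROTOP_B of -0.77 ± 0.25, so that they spread over both sides of the median of 0.92. Outside the list, the foldback entry FB4_DM was antisense-poor with 0.107% (0.0946 to 0.120%) against 0.855, 0.836 and 0.641% (-2.85 ± 0.23), as was TC1_DM with 13 antisense counts (-4.33 ± 0.29), while NOF_FB, the NOF part of foldback elements, was antisense-rich (3.55 ± 0.28). For the whole DNA class the summed log2 ratio was 0.51, and it was -0.21 without Gypsy_I and -0.46 after centring.

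**Figure D4:**
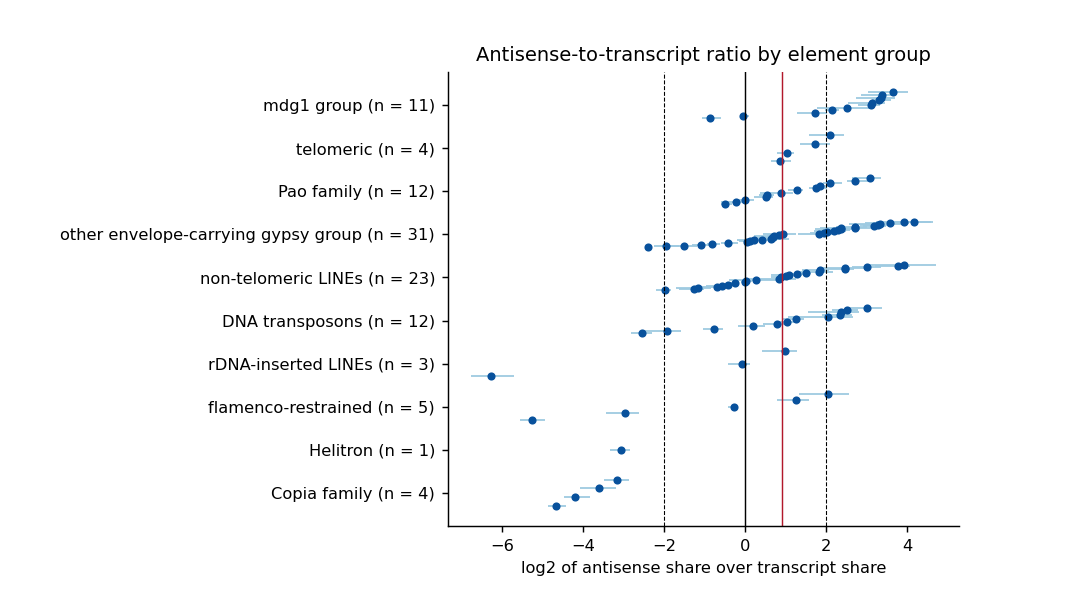
Log2 ratio of antisense share to transcript share (horizontal axis) for entries with enough counts, by element group (vertical axis, n entries each). Points are means over 3 RNA-seq libraries, pale lines run over the lowest and highest library, the solid black line marks equal shares, dashed lines 4-fold and the red line the median of all 183 entries at 0.92. The mdg1 group reaches 3.64 (DM412), the 4 listed entries of copia and DM1731 lie between -4.67 and -3.15 and the flamenco-restrained group spans -5.24 (Gypsy_I) to 2.05 (ZAM_I).

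The Helitron-like DNAREP1_DM ranked 6 among transcript entries and was antisense-poor, with 0.298% (0.278 to 0.320%) of antisense against 2.46, 2.98 and 2.13% of transcripts (-3.07 ± 0.24, 8.37-fold lower). Of the repeats that are not TEs, 4 had enough counts and 3 of them were antisense-poor, beside 8.2% of all entries. The satellite entry SAR_DM had 22 antisense counts, 0.00817% (0.00512 to 0.0124%), against 0.452, 0.796 and 0.416% of transcripts (-5.99 ± 0.51), and DMSAT6 had 31 (-4.17 ± 0.93). The large-subunit ribosomal RNA entry had 0.0876% (0.0768 to 0.0995%) against 0.690, 0.527 and 0.576% (-2.76 ± 0.20), after ribosomal reads had been removed from both kinds of library. HETRP_DM was the exception among satellites, with 0.438% (0.413 to 0.464%) against 0.175, 0.227 and 0.163% and a ratio of 1.23 ± 0.25.

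Among the highest ratios, Invader4_LTR had 0.282% (0.262 to 0.303%) of antisense against 0.00921, 0.0207 and 0.0104% of transcripts, 22.3-fold higher (4.48 ± 0.63). Gypsy3_LTR was at 4.17 ± 0.57, HELENA_RT, a Jockey family LINE, at 3.94 ± 0.85 and TABOR_LTR at 3.92 ± 0.70. G_DM at 3.91, G6_DM at 3.77, the P-like entry P-1_DY at 3.74 and DM412 at 3.64 completed the highest 8. Of these DM412 and G_DM held over 1% of antisense, and DM412 also had the largest transcript share, with 0.247, 0.497 and 0.275%. In HELENA_RT replicate 2 gave 2.99 where replicates 1 and 3 gave 4.63 and 4.20. The 34 antisense-rich entries comprised 23 of the LTR class, of which 20 were Gypsy family, 7 LINEs and 4 DNA transposons. By part of the element, 17 of 57 LTR sequences (29.8%) and 5 of 59 internal sequences (8.47%) were antisense-rich, beside 18.6% of all entries. The medians ran the other way, at 0.88 for LTR sequences with quartiles of -0.11 and 2.74, and 1.06 for internal sequences with quartiles of -0.21 and 1.91.

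The 15 antisense-poor entries were the 4 of copia and DM1731, Gypsy_I, Gypsy_LTR and ACCORD_I, R2_DM, DNAREP1_DM, the entries of the TcMar-Tc1 family FB4_DM, TC1_DM and Mariner2_DM, the satellites SAR_DM and DMSAT6, and ribosomal RNA. The 10 counts asked of antisense keep out the entries that would be poorest. Of the 31 entries with enough transcripts and under 10 antisense counts, 19 had an upper antisense bound at least 4-fold below the transcript share of every library, 11 of them TEs and 8 other repeats. SAR2_DM had 2 antisense counts against 0.403, 0.673 and 0.371% of transcripts, a ratio of shares of 649.8-fold in favour of the transcript mean with a counting interval of 179.9 to 5366-fold. The small-subunit ribosomal RNA entry had 3, against 0.320, 0.241 and 0.346%, or 272-fold (93.0 to 1317-fold). These 2 folds are plain ratios of shares, as are those given for classes, families and lists. By the mean log2 ratio with 0.5 added to each count, used for the single entries above, they were 501-fold and 230-fold. TRANSIB3 had 6 antisense counts against 0.101, 0.0907 and 0.0701% of transcripts, although the related TRANSIB2 was antisense-rich.

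No antisense count at all was recorded for 36 entries. A count of 0 in this library allows a share of up to 0.00137%, the upper end of the same exact interval. Of these entries 19 had a mean of at least 10 transcript counts and 8 at least 100, and 4 had no transcript count either. The folds that follow set that limit against the RNA-seq library in which the entry was lowest. ARS406_DM, an unclassified repeat, had 1283, 1695 and 2027 transcript counts, so that its antisense share was at least 157-fold lower than its transcript share. XDMR_DM and XDMR were at least 115-fold and 102-fold lower. Galileo_DM, a DNA transposon, had 519, 291 and 794 transcript counts and was at least 52.9-fold lower. DMRP1 was at least 19.9-fold lower, RSP, the Responder satellite, 12.3-fold and Transib5 9.16-fold. MINOS and Transib-N1_DM, both DNA transposons, were at least 8.07-fold and 8.62-fold lower. DMRPR, with 360, 13 and 107 counts, had a bound of 2.36-fold against replicate 2.

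Many LTR elements are listed as an LTR entry and an internal entry, which allows a comparison of where on the element each kind of RNA lay. There were 61 such elements, and 57 had enough counts. Summed over the 57, LTRs held 11.5% of antisense counts (11.3 to 11.7%) and 5.07, 5.96 and 5.16% of transcript counts, and the transcript value was 7.74 ± 0.490% without gypsy. The median element had 9.44% of its antisense counts on the LTR and 6.94% of its transcript counts. The elements split almost evenly, with the antisense LTR share above all 3 RNA-seq libraries in 30, below all 3 in 24 and within their range in 3. By the LTR-to-internal ratio, 5 were at least 4-fold higher in antisense than in each library and 9 at least 4-fold lower. Across the 57 elements the LTR-to-internal ratio of antisense followed that of transcripts loosely (Spearman's rank correlation 0.237).

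By the LTR-to-internal log2 ratio of antisense minus that of transcripts, DM297 was highest at 3.61. There 3662 antisense counts fell on the LTR and 4172 inside, or 46.7% of antisense counts (45.6 to 47.9%), against 6.33, 7.24 and 6.55% of transcript counts, so DM297_LTR was antisense-rich (3.18 ± 0.29) while DM297_I was not. Copia2 had 10.3% of antisense counts (8.60 to 12.3%) and 0.412, 1.72 and 1.45% of transcript counts. Both intervals lay above every RNA-seq library, as they did in the next 3 elements. Invader4, with 62.1% of antisense counts (59.4 to 64.9%) and 10.6, 17.2 and 13.7% of transcript counts, was the only element with more antisense counts on the LTR than inside. BURDOCK had 37.5% of antisense counts (35.5 to 39.4%) and 10.7, 9.85 and 10.0% of transcript counts. Gypsy itself had 14.0% of antisense counts (12.8 to 15.2%) and 2.98, 3.18 and 3.62% of transcript counts.

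At the other end, Gypsy9, TIRANT and OSVALDO had no antisense count on the LTR, against 73, 64 and 166 on the internal sequence. Gypsy9 had an upper bound of 4.93% for antisense and 57.5, 21.7 and 40.8% of transcript counts. TIRANT had an upper bound of 5.601% and 11.5, 15.1 and 10.99% of transcript counts. In both the bound lay below every library, whereas in OSVALDO, with 5, 2 and 7 transcript counts on the LTR, the bound of 2.20% was not below replicate 2 (6.25, 2.13 and 5.11% of transcript counts). ZAM had 2 LTR counts beside 677, 0.295% of antisense counts (0.0357 to 1.06%), against 1.83, 6.73 and 7.49% of transcript counts. Gypsy2 had 15 beside 2864, 0.521% of antisense counts (0.292 to 0.858%), against 9.87, 7.65 and 8.66% of transcript counts, and its libraries did not overlap that interval. MAX, the leading antisense element, had 1.23% of antisense counts (1.07 to 1.40%) and 4.74, 5.27 and 5.75% of transcript counts. Its antisense small RNA lay almost wholly on the internal sequence. Other elements with a low antisense share on the LTR were Gypsy6 with 4.56% of antisense counts (3.96 to 5.22%) and 41.1, 20.7 and 35.7% of transcript counts, and QUASIMODO2_DM with 2.07% of antisense counts (1.58 to 2.66%) and 19.7, 20.6 and 18.7% of transcript counts.

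**Figure D5:**
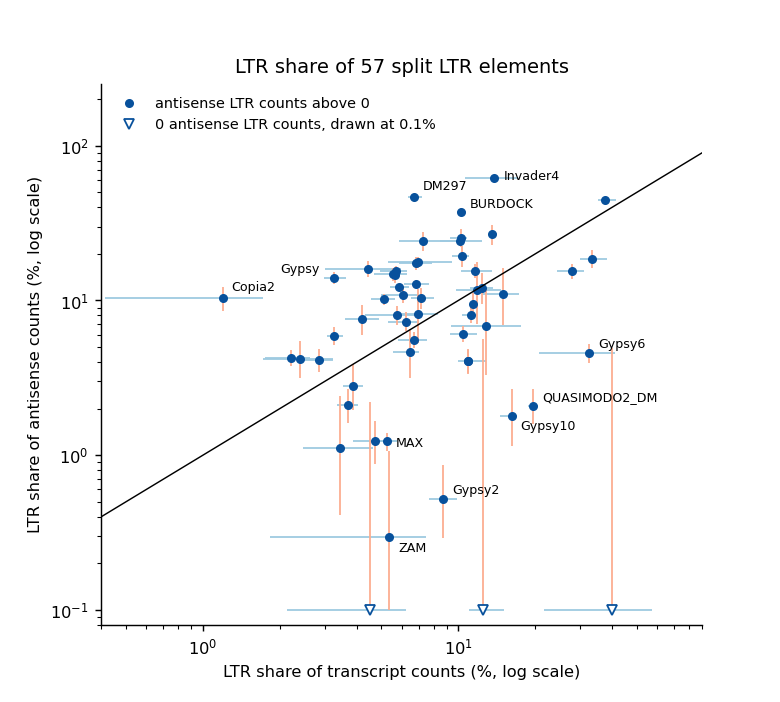
Share of an element's counts that fell on its LTR, in antisense small RNA (%, vertical log axis, with 95% binomial intervals) against transcripts (%, horizontal log axis, mean with the range of 3 libraries), for 57 LTR elements; the line marks equal shares. DM297 (46.7% of antisense), BURDOCK (37.5%) and Invader4 (62.1%) lie far above the line, and Gypsy2 (0.521%) and ZAM (0.295%) far below it. Of the 3 elements with 0 antisense LTR counts, the intervals of Gypsy9 and TIRANT end below their libraries and that of OSVALDO (up to 2.20%) does not.

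The RNA-seq libraries agreed in the order of entries and differed in shares by more than counting error. Pearson's r of log2 shares between library pairs lay between 0.958 and 0.987 over 214 entries, and the chi-square per degree of freedom between 91.3 and 205, so no library repeated another. The common biological coefficient of variation from edgeR was 0.214. Over the 167 entries with a mean of at least 100 counts the median coefficient of variation of the share was 23.3%, and 133 of them had their highest share in replicate 2, where Gypsy_I had its lowest. With Gypsy_I taken out, the median coefficient of variation was 15.6% and replicate 2 was highest in 104 of 166 entries. The most variable entry was DMRPR, with 360, 13 and 107 counts, followed by RSP with 86, 290 and 272. Of the LTR entries CIRCE varied most, with 351, 1031 and 1022 counts, and of the LINEs Baggins1, with 540, 1482 and 1567.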

How the data were processed

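RNA-seq of total RNA (3 libraries) and small RNA sequencing after oxidation (1 library) of piwi2/CyO fat body were analysed from the raw counts deposited by the authors, who assigned reads to repeats with RepEnrich, which pools all copies of a repeat. Per the labels the genome build was dm3, and the processing notes name CASAVA 1.8, TopHat2 2.0.10, cutadapt, Bowtie and Bowtie2. Before counting, small RNA reads were trimmed and those matching ribosomal RNA removed, and antisense reads alone were tabulated. A second table gives the authors' normalized antisense signal, scaled by uniquely aligned reads of cisNATs and of structured loci. It was 1.72 to 2.06 times the raw counts over 183 entries and served as an alternative.

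Shares and log2 ratios were computed in Python 3.11.15 (numpy 2.4.6, pandas 2.3.3, scipy 1.17.1), with a pseudocount of 0.5, a minimum of 10 counts and a 4-fold call. Scaling factors and dispersion came from edgeR 4.0.16 and DESeq2 1.42.0 in R 4.3.3, and figures from matplotlib 3.10.9. The code for ratios and calls was run on simulated counts with large planted differences. That simulation had a deeper small RNA library and less spread between libraries than these data, so it says nothing of the error rate here. Depth is 269440 antisense and 401540 to 941049 transcript counts, and the residual line is 0.651% and 93.7 to 95.3% of counts. Named entries are the 15 largest shares of each kind, the 8 highest and lowest ratios, the 5 highest and lowest LTR-to-internal ratios, up to 10 entries without antisense counts and members of element lists. The members and lists were chosen with earlier results of these data known, and the lists follow textbook classification. Alternatives were other scalings, minimums and pseudocounts, TE classes alone, no Gypsy_I, and each library left out. All columns used could be mapped to samples. The mutant fat bodies, the wild-type tissues and the authors' own fold change columns were not used here.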

Additional observations from a re-analysis of the deposited data

How the results depend on the processing

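Counts were held to a 1.5-fold change, transcript shares, medians and correlations to the SD between libraries, and antisense values to their counting interval. By these limits 90 summary values stayed within and 17 moved beyond, some of them by little. Taking out Gypsy_I gave the LTR class 62.6% of antisense and 65.3% of transcripts, raised the number of entries that hold 50% of transcripts to 14, against 4 with it, and gave 23 antisense-poor entries, against 15. TE classes alone gave the LTR class 63.3% of antisense and a rank correlation of 0.711. With no minimum count the rank correlation was 0.737 and 41 entries were antisense-poor, and with at least 100 counts it was 0.633, with 19 antisense-rich and 8 antisense-poor entries, fewer entries being eligible. Summing the counts over libraries before taking the ratio gave 53 antisense-rich entries, and the median-centred ratio, added once results were known, 20 antisense-rich and 26 antisense-poor. With 5 added to each count the median LTR-to-internal log2 ratio of transcripts was -3.62, against -3.77 with 0.5 added. With each RNA-seq library left out in turn that median lay between -3.77 and -3.66, antisense-rich entries between 34 and 54, antisense-poor entries between 15 and 16, the rank correlation between 0.662 and 0.686 and the LTR share of transcripts between 77.3 and 81.4%. The 2 counts of calls could only stay or rise here, since a call asks for 4-fold against every library used. TMM and DESeq2 factors each gave 41 antisense-rich and 14 antisense-poor entries. For single named entries 326 values stayed within the spread and 43 moved beyond it. Ratios were checked only for the 8 highest and 8 lowest, where a change of sign was hardly possible, and 0 were seen. Count minimums and the TMM and DESeq2 factors leave the mean ratio of an entry unchanged, so those values stayed by construction. Where not stated, the cause was not tested. No paired analysis was possible because the results come from no test between groups of samples with shared replicate numbers. Depth limits the antisense side, where 1 library gives no error beyond counting and 10 counts have wide intervals.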
